A study of Mus musculus with 12 samples.

Results

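The genes described here are 6 regulators of definitive endoderm, Sox17, Foxa1, Foxa2, Foxa3, Hhex and Cer1. They were chosen by name, each as the assembled locus whose transcripts match or extend the annotated gene, and are 6 of 80012 loci counted and of 17938 loci tested. Each of the 6 names led to 1 locus that carried no other gene's name. The study followed mouse embryonic stem cells (ESC) as they enter mesendoderm, the common precursor of mesoderm and definitive endoderm, and measured polyadenylated RNA by strand-specific sequencing. All 12 libraries came from 1 C57BL/6 reporter line, EomesEGFP, in which green fluorescent protein is driven from the Eomes locus. Undifferentiated ESC (4 libraries) were grown on mouse embryonic fibroblast feeders with serum and leukaemia inhibitory factor. Embryoid bodies from hanging drops were sorted at day 3 of differentiation into fluorescent Eo+ cells (4 libraries) and non-fluorescent Eo− cells (4 libraries). Eomes itself set the sort, so its level is a check of the labels, and Eo− cells are the negative fraction of the same embryoid bodies, not an untreated control. The day 3 populations and ESC also differ in medium and in the feeder layer.

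Definitive endoderm gives rise to the gut tube and its organs, and arises in the anterior primitive streak from cells that receive strong Nodal signals and express Eomes. Foxa2 is a forkhead pioneer factor that opens chromatin at endoderm genes and is also needed for the node and notochord; Foxa1 and Foxa3 are its paralogues and act with it later in the gut, liver and pancreas. Sox17 is an HMG-box factor required to form the definitive gut endoderm, Hhex is a homeobox repressor of the anterior endoderm and later of liver and thyroid, and Cer1 is a secreted antagonist of Nodal, BMP and Wnt ligands. None of these genes belongs to definitive endoderm alone: visceral endoderm, an extraembryonic tissue, expresses several of them, and Foxa2 marks the axial mesoderm.

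Libraries held 648413022 to 837308168 counts over all loci, so that 3 counts, the floor used here, correspond to 0.00368 to 0.00485 CPM (counts scaled to the same library total in every sample, with trimmed-mean factors). The lowest count of any of the 6 genes in any library was 190, for Cer1 in ESC, and counting error was therefore small beside the spread between libraries. Eomes stood at 48.2 ± 9.15 CPM (SD, n = 4) in ESC, 142 ± 23.1 in Eo− and 547 ± 101 in Eo+, and its libraries did not overlap between groups. Eo− cells thus carried 25.9% of the Eo+ level of the sorted gene. In bulk RNA a smaller number of cells that express a gene cannot be told apart from a lower level in each cell, and this holds for every level below.

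All 6 genes were higher in Eo+ cells than in ESC and higher in Eo+ than in Eo− cells, and 4 of 6 were higher in Eo− cells than in ESC. Cer1 moved most, from 0.574 ± 0.404 CPM (SD, n = 4) in ESC to 271 ± 94.6 in Eo+, and Foxa3 moved least, from 1.3 ± 0.136 to 5.0 ± 2.15. The exceptions in Eo− vs ESC were Foxa1 and Hhex, whose libraries overlapped. Over all 17938 loci, limma-voom called 35.8% higher in Eo+ vs ESC, 30.9% when Eo− was set against ESC and 23% between Eo+ and Eo− (threshold on the adjusted p, 0.05), while 36.1%, 31.3% and 24.6% were called lower. The median log2 fold change of the 6 genes was 4.08, 1.75 and 2.8 in the same order, against 0.0, 0.02 and −0.01 over all loci. Groups did not overlap, with the first group higher, for 6, 4 and 5 of the 6 genes, against 32.2%, 27.6% and 22.3% of all loci. The comparisons with ESC share the 4 ESC libraries, and Eo+ vs Eo− shares libraries with both.

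**Figure D1:**
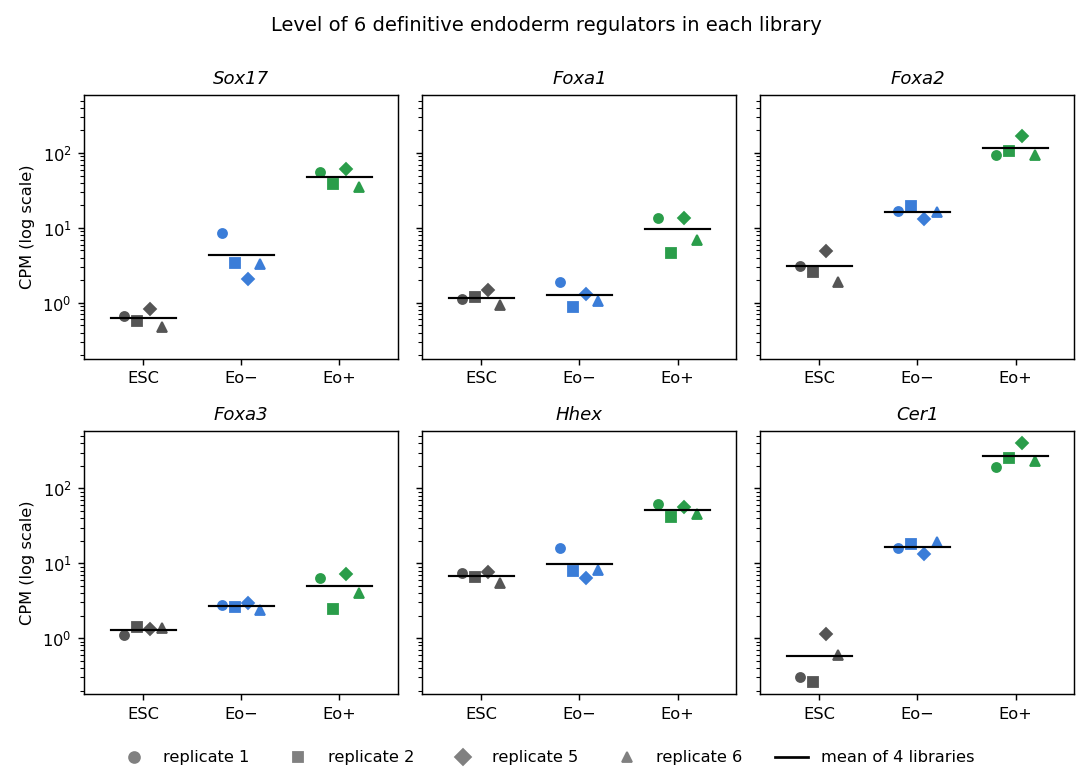
Level of each of the 6 genes in CPM on a log axis (vertical) in ESC, Eo− and Eo+ (horizontal), with 1 symbol per library shaped by replicate number and a bar at the mean of 4 libraries. The 3 groups are separate for Sox17, Foxa2 and Cer1, ESC and Eo− overlap for Foxa1 and Hhex, and Eo+ replicate 2 of Foxa3 lies among the Eo− libraries.

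**Figure D2:**
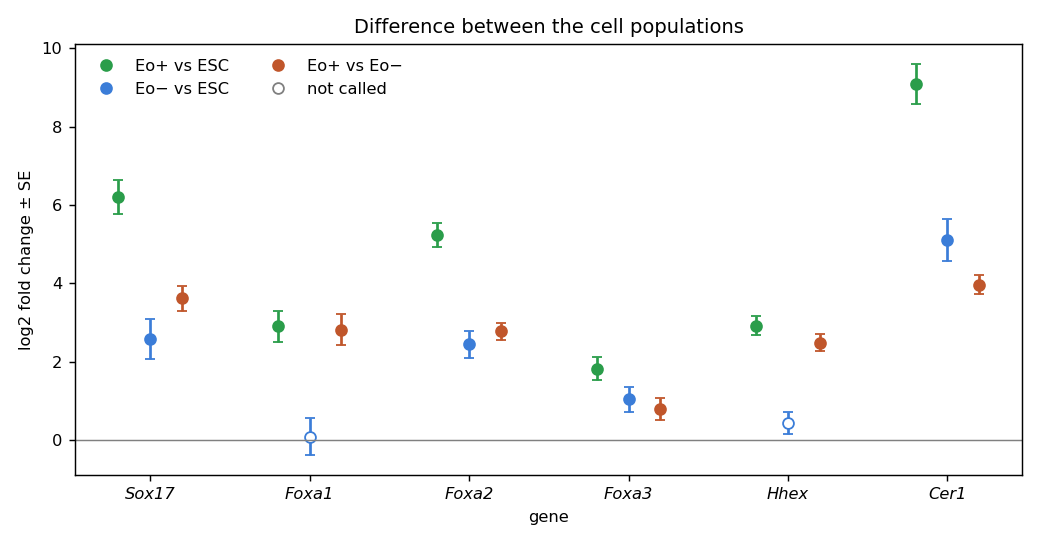
Log2 fold change with its standard error (vertical) for each gene (horizontal) in Eo+ vs ESC, Eo− vs ESC and Eo+ vs Eo−, by limma-voom on all 12 libraries. Open symbols, Foxa1 and Hhex in Eo− vs ESC, did not pass an adjusted p of 0.05.

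Sox17 (XLOC_002676, ENSMUSG00000025902) lies on chromosome 1, 4489293 to 4497335, minus strand of mm10, and 7 transcripts were assembled there. In ESC replicates 1, 2, 5 and 6 it had 0.677, 0.564, 0.816 and 0.482 CPM. Eo− libraries had 8.43, 3.41, 2.05 and 3.28 CPM in the same order, and Eo+ libraries 56.0, 38.0, 60.6 and 35.1 CPM. No library of one group reached another group, but Eo− replicate 1 stood well above the other Eo− libraries. Sox17 was 73.9-fold higher in Eo+ than in ESC (log2 fold change 6.21 ± 0.44 SE, limma-voom adjusted p = 3.63e-08). It was also higher in Eo− than in ESC, by 2.59 ± 0.51 on the log2 scale (limma-voom adjusted p = 0.000561), and in Eo+ than in Eo− by 3.62 ± 0.32 (limma-voom adjusted p = 1.93e-06). Without Eo− replicate 1 the difference of Eo− from ESC was 2.18.

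The closest relatives of Sox17, the SoxF genes Sox7 and Sox18, which act in endothelium and, for Sox7, in primitive endoderm, were not called between the sorted fractions. Both rose from ESC to the day 3 populations, Sox7 by 3.06 in Eo+ and 2.19 in Eo− and Sox18 by 1.56 and 2.11 on the log2 scale. The log2 fold changes in Eo+ vs Eo− were 0.87 for Sox7 (limma-voom adjusted p = 0.284) and −0.56 for Sox18 (limma-voom adjusted p = 0.344). The sum of both genes spread from 4.46 to 30.7 CPM over the Eo+ libraries, with replicate 1 highest, so a difference between the sorted fractions was not resolved for them. Within 100 kb of Sox17 only 1 locus was tested, the non-annotated lncRNA XLOC_000012, which the study describes as expressed in ESC only. Its locus had 36.8 CPM in ESC, 24.9 in Eo− and 21.5 in Eo+. It was lower than in ESC by 0.77 ± 0.1 SE in Eo+ and by 0.56 ± 0.1 in Eo− on the log2 scale, where Sox17 was higher. In Eo+ vs Eo−, where Sox17 differed as well, it was not called (−0.21, limma-voom adjusted p = 0.109).

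Foxa2 (XLOC_042300, ENSMUSG00000037025) lies on chromosome 2, 148042877 to 148049196, minus strand, with 8 assembled transcripts. In ESC it had 3.12, 2.59, 4.95 and 1.9 CPM in replicates 1, 2, 5 and 6. Eo− libraries had 16.7, 19.5, 13.0 and 16.4 CPM, and Eo+ libraries 93.8, 105, 170 and 94.2 CPM. The 3 groups were separate, 3 Eo+ libraries lay close together, and Eo+ replicate 5 was highest. Foxa2 rose 37.6-fold from ESC to Eo+ (log2 fold change 5.23 ± 0.31 SE, limma-voom adjusted p = 7.4e-09) and 5.46-fold from ESC to Eo− (2.45 ± 0.34 SE, limma-voom adjusted p = 3.16e-05). Between the sorted fractions it was 6.88-fold higher in Eo+ (2.78 ± 0.22 SE, limma-voom adjusted p = 7.19e-07).

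The annotated lncRNA 9030622O22Rik (chromosome 2, 147936781 to 148040332) is transcribed from the same strand as Foxa2 and starts 2.5 kb beyond its 3′ end. It had 0.154, 0.0151, 0.0551 and 0.0782 CPM in ESC, 3.04, 1.5, 1.81 and 1.93 in Eo−, and 14.7, 8.42, 21.7 and 9.2 in Eo+, in replicates 1, 2, 5 and 6. As with Foxa2, the groups did not overlap and Eo+ replicate 5 was highest. Against ESC it rose by 7.77 ± 0.74 SE on the log2 scale in Eo+ (limma-voom adjusted p = 4.86e-07) and by 5.12 ± 0.77 in Eo− (limma-voom adjusted p = 6.75e-05), and Eo+ exceeded Eo− by 2.65 ± 0.36 (limma-voom adjusted p = 5.53e-05). Whether the lncRNA is read through from the Foxa2 transcript was not tested. On the strand opposite Foxa2 a locus of 1 exon, XLOC_039271, held at most 0.319% of the Foxa2 count in any library.

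Foxa1 (XLOC_016090, ENSMUSG00000035451) lies on chromosome 12, 57540283 to 57546970, minus strand, with 3 assembled transcripts. ESC replicates 1, 2, 5 and 6 had 1.11, 1.18, 1.47 and 0.937 CPM and Eo− replicates 1.91, 0.875, 1.32 and 1.06 CPM. These groups overlapped, and the log2 fold change of 0.09 ± 0.47 SE was not called (limma-voom adjusted p = 0.874). Eo+ libraries had 13.6, 4.58, 13.6 and 6.9 CPM, a spread of 2.97-fold, and every one lay above the ESC and Eo− libraries. Foxa1 was 7.52-fold higher in Eo+ than in ESC (log2 fold change 2.91 ± 0.39 SE, limma-voom adjusted p = 1.46e-05) and 7.06-fold higher than in Eo− (2.82 ± 0.39 SE, limma-voom adjusted p = 6.17e-05).

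Ttc6, a protein-coding gene on the opposite strand whose locus starts inside the 5′ end of the Foxa1 locus (chromosome 12, 57546362 to 57737928), was low and rose with Foxa1 in Eo+. It had 0.223 ± 0.0744 CPM (SD, n = 4) in ESC, 0.437 ± 0.0909 in Eo− and 2.48 ± 0.663 in Eo+. Against ESC it rose by 3.49 ± 0.28 SE on the log2 scale in Eo+ (limma-voom adjusted p = 1.01e-07) and by 1.0 ± 0.31 in Eo− (limma-voom adjusted p = 0.0134), and Eo+ exceeded Eo− by 2.49 ± 0.24 (limma-voom adjusted p = 4.18e-06). Unlike Foxa1, Ttc6 was called in Eo− vs ESC, and the difference between both genes was not tested. The next locus, which carries Mipol1 and Prps1l3 and lies 43.1 kb away, was not called in any comparison, with log2 fold changes between −0.12 and 0.1.

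Foxa3 (XLOC_063911, ENSMUSG00000040891) lies on chromosome 7, 19013254 to 19023981, minus strand, with 3 assembled transcripts. It had 1.1, 1.41, 1.33 and 1.38 CPM in ESC, 2.77, 2.61, 2.98 and 2.38 in Eo−, and 6.36, 2.49, 7.18 and 3.99 in Eo+. Foxa3 was higher than ESC in every day 3 library, but Eo+ replicate 2 lay within the Eo− range. The rise from ESC was 3.56-fold in Eo+ (log2 fold change 1.83 ± 0.3 SE, limma-voom adjusted p = 9.2e-05) and 2.07-fold in Eo− (1.05 ± 0.32 SE, limma-voom adjusted p = 0.0106). Between Eo+ and Eo− the log2 fold change was 0.79 ± 0.28 SE (limma-voom adjusted p = 0.0306). That call was lost in the fit of both sorted groups alone (limma-voom adjusted p = 0.0586), and without Eo− replicate 2 (0.0655), Eo− replicate 6 (0.0737), Eo+ replicate 1 (0.0865) or Eo+ replicate 5 (0.0757). With the replicate number as a block, which pairs both fractions, Foxa3 was called, with a log2 fold change of 0.82 over all groups (limma-voom adjusted p = 0.0156) and 0.85 over the sorted groups alone (limma-voom adjusted p = 0.00898).

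Of the 9 tested loci within 100 kb of Foxa3, the nearest, Sympk at 0.3 kb, which encodes a scaffold of the mRNA 3′ end machinery, rose by 0.48, 0.26 and 0.22 on the log2 scale in Eo+ and Eo− relative to ESC and in Eo+ relative to Eo−. Small rises in Eo+ vs ESC were also called for Irf2bp1 (0.6), Mypop (0.39), the locus of Dmpk, Dmwd and Six5 (0.53) and Fbxo46 (0.27). The lncRNA locus of Gm10676 and Mypopos rose by 2.17, 1.57 and 0.6. Nova2, an RNA-binding protein of neurons, fell by 1.9 and Gm4969 fell by 1.53 in Eo+ vs ESC, and Rsph6a fell by 2.62.

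The 3 Foxa paralogues were compared per transcript length, as FPKM, which divides the library-scaled count by the union length of the exons of the locus. Foxa2 supplied 50.1 ± 8.99% (SD, n = 4) of their summed FPKM in ESC, 76.2 ± 4.79% in Eo− and 87.7 ± 4.91% in Eo+. The Foxa2 share was 40.2 to 60.3% over ESC libraries, 70.4 to 81.2% over Eo− and 81.1 to 93.0% over Eo+, so that ESC was separate and the Eo− and Eo+ ranges met at their edges. Within the sorted pairs it was higher in Eo+ in 4 of 4, at 81.1% against 74.5% in replicate 1, 93.0% against 81.2% in replicate 2, 88.0% against 70.4% in replicate 5 and 88.5% against 78.9% in replicate 6. Foxa3 went from 31.5% in ESC to 17.9% in Eo− and 5.35% in Eo+, while Foxa1 was 18.5%, 5.79% and 6.98%. Because paralogues share sequence in the forkhead domain and only uniquely aligned reads were counted, levels of the 3 genes could be lowered to unequal degrees.

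**Figure D3:**
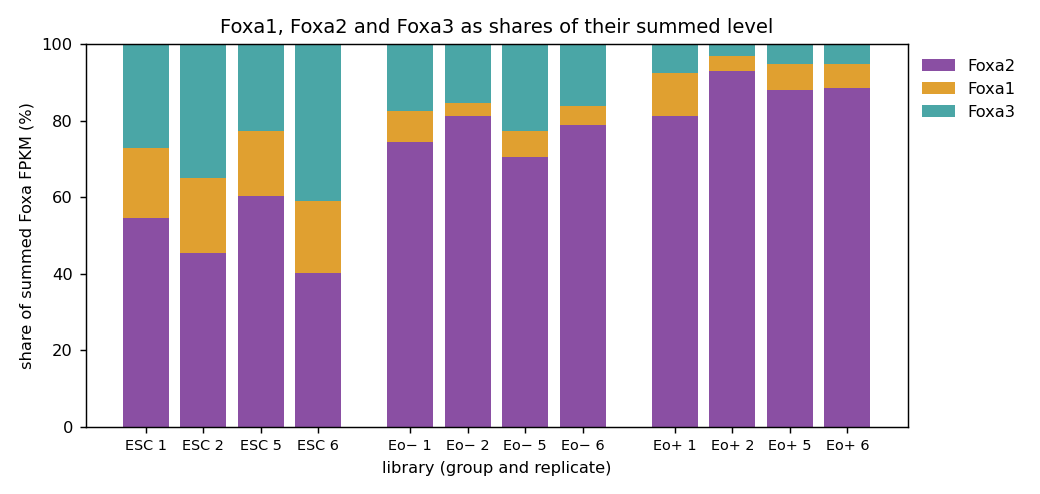
Share of the summed FPKM of Foxa1, Foxa2 and Foxa3 (vertical, percent) contributed by each gene in each of the 12 libraries (horizontal). Foxa2 takes 40.2 to 60.3% in ESC and 81.1 to 93.0% in Eo+, and the Foxa3 share is largest in ESC replicate 6.

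Hhex (XLOC_035567, ENSMUSG00000024986) lies on chromosome 19, 37434810 to 37440731, plus strand, with 2 assembled transcripts that both match the annotation. ESC replicates 1, 2, 5 and 6 had 7.52, 6.53, 7.64 and 5.4 CPM. Eo− libraries had 16.2, 7.98, 6.38 and 8.03 CPM, with replicate 1 alone well above ESC, and Eo+ libraries had 62.2, 42.1, 56.3 and 46.1 CPM. Hhex was 7.58-fold higher in Eo+ than in ESC (log2 fold change 2.92 ± 0.24 SE, limma-voom adjusted p = 1.08e-07) and 5.6-fold higher than in Eo− (2.49 ± 0.22 SE, limma-voom adjusted p = 1.93e-06). In Eo− vs ESC the log2 fold change of 0.44 ± 0.28 SE was not called (limma-voom adjusted p = 0.185). It was 0.14 without Eo− replicate 1. With the replicate number as a block it was 0.48 and was called (limma-voom adjusted p = 0.0356).

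On the strand opposite Hhex, a locus of 1 exon (XLOC_036616, chromosome 19, 37429512 to 37434811) begins at the Hhex start and runs away from it. It had 0.338 ± 0.0648 CPM (SD, n = 4) in ESC, 0.593 ± 0.263 in Eo− and 2.22 ± 0.715 in Eo+, which was 3.57 to 7.88% of the Hhex count over all libraries. A second such locus inside Hhex, XLOC_036617, held 1.01 to 1.51% of the Hhex count. Both are unspliced and outside the 3 classes tested, so they have no test, and whether their reads come from imperfect strand marking was not tested. Farther away, Kif11, a mitotic kinesin 10.9 kb from Hhex, was not called in Eo+ vs ESC (−0.17), was lower in Eo− than in ESC (−0.49, limma-voom adjusted p = 0.000113) and was higher in Eo+ than in Eo− (0.32, limma-voom adjusted p = 0.00451). Ide, the insulin-degrading protease, was lower in Eo+ than in ESC (−0.57) and than in Eo− (−0.61). The lncRNA XLOC_036612 was not called in any comparison.

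Cer1 (XLOC_050731, ENSMUSG00000038192) lies on the minus strand of chromosome 4. The annotated gene corresponds to the assembled transcript at 82881751 to 82885148, and a transcript that extends its 3′ exon reaches 82874730. Another transcript joins a distant exon and stretches the locus to 82588961, past Zdhhc21 and into Nfib, and counts were summed over the locus. Cer1 had 0.3, 0.261, 1.14 and 0.599 CPM in ESC replicates 1, 2, 5 and 6, the widest relative spread of the 6 genes in that group (4.35-fold). Eo− libraries had 16.0, 18.0, 13.5 and 19.3 CPM and Eo+ libraries 192, 258, 407 and 229 CPM. The groups were far apart, and Eo+ replicate 5 was again highest. Cer1 was 544-fold higher in Eo+ than in ESC (log2 fold change 9.09 ± 0.52 SE, limma-voom adjusted p = 4.82e-09) and 34.6-fold higher in Eo− (5.11 ± 0.54 SE, limma-voom adjusted p = 3.05e-06). Eo+ exceeded Eo− 15.7-fold (3.97 ± 0.25 SE, limma-voom adjusted p = 1.57e-07), and the Eo− mean was 6.16% of the Eo+ mean, the lowest such ratio of the 6 genes.

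Frem1, a gene of the basement membrane on the same strand 12.4 kb from Cer1, was also higher in Eo+. It had 0.748, 0.261, 0.279 and 0.363 CPM in ESC, 4.31, 2.42, 3.1 and 2.65 in Eo− and 13.5, 4.94, 12.3 and 5.74 in Eo+, with no overlap between groups. Against ESC it rose by 4.46 ± 0.48 SE on the log2 scale in Eo+ (limma-voom adjusted p = 1.69e-06) and by 3.01 ± 0.51 in Eo− (limma-voom adjusted p = 0.000176), and Eo+ exceeded Eo− by 1.45 ± 0.35 (limma-voom adjusted p = 0.00369). Its highest Eo+ library was replicate 1, not replicate 5 as for Cer1. Zdhhc21 and Nfib, which overlap the stretched Cer1 locus on the same strand, moved little or the other way, with log2 fold changes of 0.71 and −2.26 in Eo+ vs ESC.

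**Figure D4:**
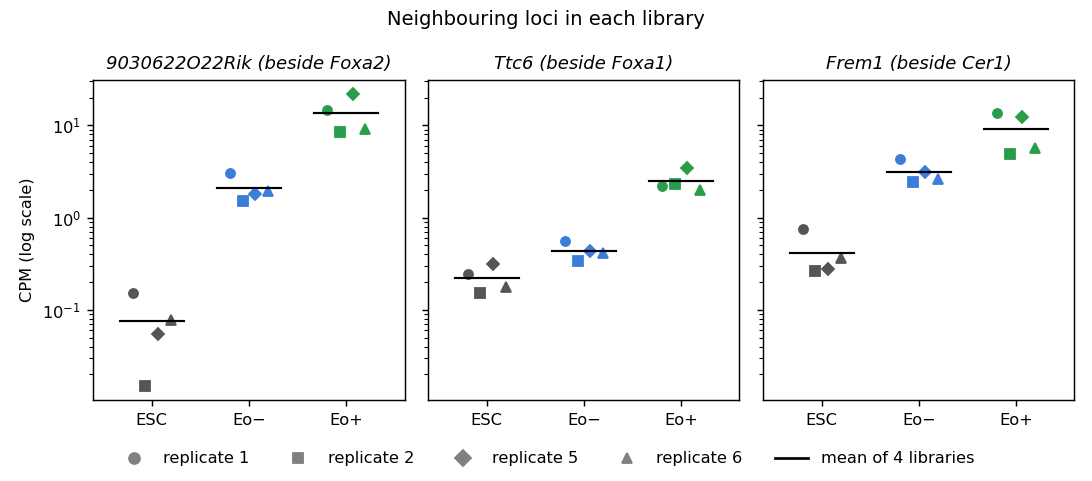
Level in CPM on a log axis (vertical) of 3 loci beside the 6 genes in ESC, Eo− and Eo+ (horizontal), with 1 symbol per library and a bar at the mean of 4 libraries. The lncRNA 9030622O22Rik beside Foxa2, Ttc6 beside Foxa1 and Frem1 beside Cer1 are each highest in Eo+, with no overlap between groups.

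The ligands that Cer1 binds or opposes did not move as 1 group. Of 7 such genes, 4 were higher and 1 lower in Eo+ vs Eo−, with a median log2 fold change of 1.77. Bmp2 rose by 3.61 (limma-voom adjusted p = 1.04e-05), Bmp7 by 2.49 (limma-voom adjusted p = 5.73e-08), Wnt3 by 2.0 and Bmp4 by 1.77. Nodal, the ligand that induces Cer1, fell by 0.78 in Eo+ vs Eo− (limma-voom adjusted p = 0.000682) and by 1.14 in Eo+ vs ESC, with 107, 83.5 and 49.6 CPM in ESC, Eo− and Eo+. Wnt3a and Wnt8a were not called there, with log2 fold changes of 1.33 and −0.08. Of the DAN family relatives of Cer1, which antagonise BMP or Nodal, Grem1 and Nbl1 were lower and Dand5 was higher in both day 3 populations than in ESC, and these genes were not called between Eo+ and Eo−. Grem1 fell by 4.3 on the log2 scale in Eo+ vs ESC, and markers of the fibroblast feeders fell alongside, as given below.

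Compared per length, the order of the 6 genes changed between populations. In ESC Hhex was highest (3.53 ± 0.542 FPKM, SD, n = 4), followed by Foxa2, Foxa3, Foxa1, Sox17 and Cer1, and the ranges of Foxa2 and Foxa3 and of Sox17 and Cer1 overlapped. In Eo+ the order was Foxa2 (32.6 ± 10.3 FPKM), Cer1 (29.6 ± 10.3), Hhex (26.9 ± 4.81), Sox17 (6.53 ± 1.75), Foxa1 (2.59 ± 1.24) and Foxa3 (1.99 ± 0.858). The first 3 overlapped with their neighbours in that order, as did Foxa1 with Foxa3, while Hhex and Sox17 and Sox17 and Foxa1 were separate. Eo− lay between, with Hhex at 5.04 ± 2.32 FPKM overlapping Foxa2 at 4.63 ± 0.748. These levels and the order depend on the length they are divided by, which for Cer1 was 9162 bp for the union of assembled exons against 1739 bp for the annotated transcript, and for Sox17 7263 bp against 3127 bp. With annotated lengths Cer1 came first in Eo+ at 156 FPKM, ahead of Foxa2 at 54.3, and first in Eo− at 9.61. Sox17 was then at 0.203 FPKM in ESC, below Cer1 at 0.33, at 1.37 in Eo−, above Foxa3 at 1.32, and at 15.2 in Eo+. The counts divided by annotated lengths were still those of the whole assembled locus. Reads outside the annotated transcript are thus included, and their share was not separated. For Cer1 and Sox17 these values are therefore upper limits, and the changed ranks depend on them.

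Sequence upstream of these genes is shown for the promoters in which searched motifs of endoderm factors were found, each 250 bases before to 50 bases after a RefSeq start site on GRCm38.p6, read 5′ to 3′ on the strand of the gene, with motif matches in capitals. A RefSeq window was matched for 5 of the 6 genes, Sox17 being the exception.
Cer1, chr4:82885102-82885401, minus strand: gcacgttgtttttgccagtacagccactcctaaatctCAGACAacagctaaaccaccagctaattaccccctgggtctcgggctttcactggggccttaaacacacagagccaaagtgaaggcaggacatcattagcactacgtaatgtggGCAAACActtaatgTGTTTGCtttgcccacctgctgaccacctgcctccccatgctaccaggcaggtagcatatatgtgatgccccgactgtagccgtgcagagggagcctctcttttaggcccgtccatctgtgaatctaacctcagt
Foxa1, chr12:57546062-57546361, minus strand: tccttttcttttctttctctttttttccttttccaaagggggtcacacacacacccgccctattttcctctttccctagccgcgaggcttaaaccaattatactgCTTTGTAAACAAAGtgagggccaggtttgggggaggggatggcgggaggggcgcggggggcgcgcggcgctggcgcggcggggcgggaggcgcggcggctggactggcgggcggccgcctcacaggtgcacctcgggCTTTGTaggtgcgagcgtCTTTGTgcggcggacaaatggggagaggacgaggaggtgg
Foxa2, start site at 148045464, chr2:148045415-148045714, minus strand: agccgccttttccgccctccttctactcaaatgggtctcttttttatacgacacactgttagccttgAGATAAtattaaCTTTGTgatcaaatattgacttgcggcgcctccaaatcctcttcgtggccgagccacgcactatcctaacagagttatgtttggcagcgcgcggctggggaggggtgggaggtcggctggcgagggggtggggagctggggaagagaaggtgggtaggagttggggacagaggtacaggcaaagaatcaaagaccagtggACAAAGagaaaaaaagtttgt
In Cer1 the capitals are, from the 5′ end, a Smad match (CAGACA) at −213 and forkhead matches at −99 (GCAAACA) and −85 (TGTTTGC), counted as the first base relative to the start site at 0. In Foxa1 they are a forkhead match (GTAAACA) at −141, which overlaps SOX matches (CTTTGT and ACAAAG) at −145 and −137, and SOX matches at −8 and 10. In Foxa2 they are a GATA match (AGATAA) at −183 and SOX matches at −171 and 29. On both strands, the forkhead letters TGTTTAC or, as the alternative, TGTTTGC were found in 8.48% of all 32851 RefSeq promoter windows of this length. The SOX letters ACAAAG, or otherwise ACAATG, or otherwise ACAATA, were found in 34.1%. The GATA letters AGATAA or otherwise TGATAA were found in 18.6%, and the Smad letters CAGACA or otherwise GTCTGTCT in 21.5%. The T-box letters GGTGTGA were found in 3.98%, and the FoxH1 letters AATCCACA or otherwise AATACACA in 1.82%. None of these letters was found in the windows of Hhex, Foxa3 or the other Foxa2 start sites. A match is a description of the sequence, and no binding data were analysed here.

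The wider set of definitive endoderm genes moved mostly with the 6, though not throughout. Of 25 such genes, 20 were higher and 1 lower in Eo+ than in ESC, and 12 higher and 2 lower in Eo− than in ESC. In Eo+ vs Eo− 17 were higher and 2 lower. Median log2 fold changes were 2.47, 0.88 and 1.6. Over all loci, 35.8%, 30.9% and 23% were called higher and 36.1%, 31.3% and 24.6% lower in the same order. The largest differences in Eo+ vs Eo− were those of Gata6 (4.9), Gata4 (4.78), Lhx1 (4.69) and Mixl1 (4.22), all transcription factors of the mesendoderm or endoderm. The study counts Gata4 among cardiac mesoderm markers. It describes its differentiation model as favouring cardiac cells rather than definitive endoderm. Cxcr4, the chemokine receptor used to sort definitive endoderm, rose by 4.09 (limma-voom adjusted p = 2.88e-07), and the secreted Wnt antagonists Frzb and Dkk1 by 3.54 and 3.09. At the other end, the epithelial genes Cdh1 and Epcam, which definitive endoderm keeps, were lower in Eo+ than in Eo−, with log2 fold changes of −0.95 (limma-voom adjusted p = 0.000306) and −0.72 (limma-voom adjusted p = 0.00138). Otx2, a factor of anterior endoderm and neuroectoderm, was high in both fractions, with 180 CPM in Eo− and 157 in Eo+, and was not called between them. Genes of the later endoderm organs were low: Alb, Pdx1, Nkx2-1 and Onecut1 were below the expression filter, and of the 4 tested genes Prox1 alone was higher in both day 3 populations than in ESC, at 15.6 ± 2.09 CPM in Eo+.

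Of 13 genes of Nodal signalling and factors upstream of the 6, counted without Eomes because the fractions were sorted on it, 11 were higher and 2 lower in Eo+ vs Eo−, with a median log2 fold change of 0.48. The factors Mixl1 (4.22) and Gsc (4.14) were followed by the Nodal co-receptor Tdgf1 (1.62). Receptors and signal transducers rose less: Acvr2a by 0.92, Acvr1b by 0.48, Smad4 by 0.38, Smad2 and Smad3 by 0.31 each and Acvr2b by 0.29. Nodal and Pcsk6, a convertase that matures Nodal, were lower, with log2 fold changes of −0.78 and −1.19. The Nodal antagonist Lefty1, with 315 CPM in ESC, was lower in both day 3 populations than in ESC (−2.38 in Eo+ and −3.24 in Eo−), where Cer1 was higher, and like Cer1 it was higher in Eo+ than in Eo− (0.86, limma-voom adjusted p = 0.0193). Foxh1 was assembled into a locus joined with Cyhr1 and was left out of these counts.

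Markers of other cell types that express some of the 6 genes were present in Eo+ as well. Of 12 visceral endoderm markers tested, 7 were higher and 2 lower in Eo+ vs Eo−, with a median of 1.63, among them Afp (4.2), Apob (3.77), Hnf4a (3.06) and, lower in Eo+, Apoa2 (−2.17). Ttr had 23.8, 0.681, 12.2 and 3.66 CPM in Eo+ replicates 1, 2, 5 and 6, and Afp 3.42, 0.172, 1.59 and 0.764. Ttr was not called in Eo+ vs Eo− (2.81, limma-voom adjusted p = 0.0535), and Afp in Eo+ replicate 2 lay below Eo− replicate 1 (0.441 CPM). Within every sorted pair, however, both were higher in Eo+. Eo− replicates 1, 2, 5 and 6 had 3.98, 0.191, 0.65 and 0.565 CPM of Ttr and 0.441, 0.012, 0.0755 and 0.0132 of Afp. Summed over the 12 markers, Eo+ libraries had 118, 19.9, 71.9 and 35.9 CPM, and ESC libraries 92.2 to 96.1, of which Rhox5 supplied a mean of 84.5 CPM in ESC. Foxa1 and Hhex stood lowest in the Eo+ library in which this sum was lowest, replicate 2, as did Foxa3, and these 3 genes and Sox17 were higher in replicates 1 and 5 than in replicates 2 and 6. Foxa2 and Cer1 did not follow that order and were lowest in replicate 1, at 93.8 and 192 CPM, where the visceral endoderm sum was highest. In Eo−, replicate 1 was highest for Sox17, Foxa1 and Hhex but not for Foxa2, Foxa3 or Cer1. The marker sum in Eo− was 41.9, 40.4, 42.6 and 36.1 CPM in replicates 1, 2, 5 and 6. Rhox5 supplied a mean of 29.0 CPM of it, and the sum did not set replicate 1 apart. Single markers did: replicate 1 was highest for Ttr (3.98 CPM against 0.191 to 0.65) and Afp (0.441 against 0.012 to 0.0755). The same held for Apob (2.64 against 0.412 to 0.678) and Hnf4a (1.23 against 0.337 to 0.526). Values per library of the other markers are not given here. The part of visceral endoderm in these levels was not tested.

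Nascent mesoderm markers were higher in Eo+ vs Eo− for 7 of 8 genes, with a median log2 fold change of 3.01, led by Mesp1 (4.57) and Pdgfra (3.97). Their sum over Eo+ replicates 1, 2, 5 and 6 was 667, 660, 222 and 746 CPM, whereas the sum of the 6 endoderm regulators was 424, 450, 715 and 415 CPM. Cer1 and Foxa2, with Eo+ means of 271 and 116 CPM, supplied most of the latter sum. Eo+ replicate 5, highest for 4 of the 6 genes but not for Foxa1 or Hhex, was lowest for the mesoderm sum. Node and notochord markers, which matter for Foxa2, were higher in Eo+ vs Eo− for 3 of 6 genes, Chrd (2.14), Foxj1 (2.11) and T (1.5). Shh (−1.08), Nog (0.24) and Dand5 (−0.11) were not called. Noto, assembled into a locus joined with Smyd5, was left out. Over these markers Eo+ replicates summed to 589, 949, 829 and 851 CPM. T, which the study also counts among mesendoderm factors, had a mean of 643 CPM in Eo+, so the sum mostly reflects T. Primitive and parietal endoderm markers were higher for 8 of 12 genes and lower for 1, with Pth1r (2.15) and Col4a1 (1.66) leading. Of 7 fibroblast feeder markers tested, 7 were lower in Eo+ and 5 in Eo− than in ESC, and Thy1 was higher in Eo− (0.62, limma-voom adjusted p = 0.0148). They summed to 95.4 to 239 CPM in ESC against 19.0 to 31.5 in Eo+, and their part in the ESC levels of the 6 genes was not tested.

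**Figure D5:**
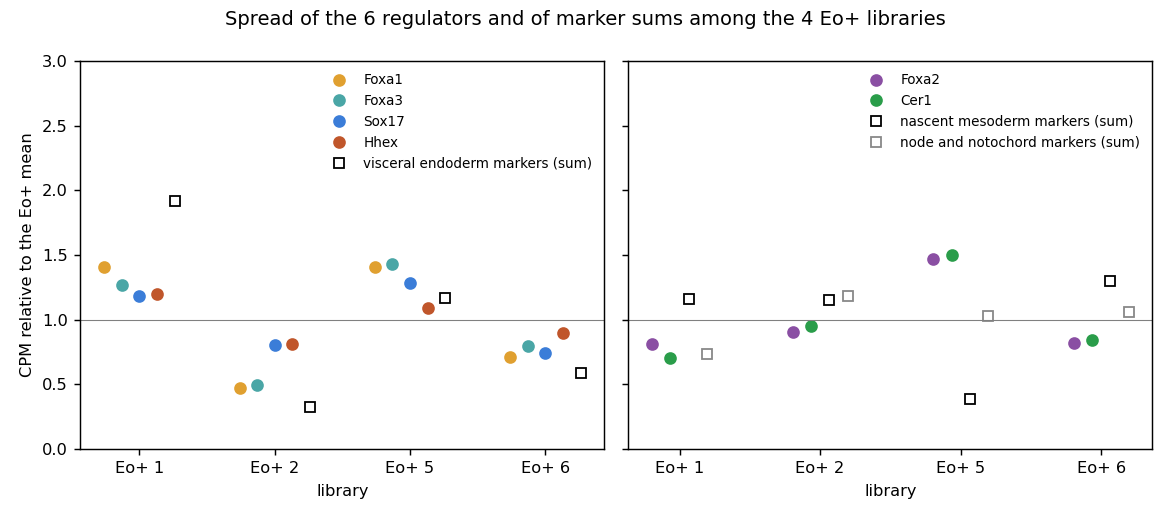
Level in each Eo+ library relative to the mean of the 4 Eo+ libraries (vertical, ratio of CPM) for replicates 1, 2, 5 and 6 (horizontal), with filled circles for the 6 genes and open squares for sums over marker lists. Foxa1 and Foxa3 are at 0.474 and 0.497 of their mean in replicate 2, where the visceral endoderm sum is at 0.324, and Foxa2 and Cer1 are at 1.47 and 1.5 in replicate 5, where the nascent mesoderm sum is at 0.387.

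The 6 genes were also set against each other and against 11835 protein-coding loci by the root mean square difference of their log2 CPM profiles over the 12 libraries, each centred on its own mean. Foxa1 and Hhex were the most alike pair of the 6 (0.36), then Sox17 and Foxa2 (0.58), and Foxa3 and Cer1 the least (2.92). The loci nearest to Sox17 were Cfc1 (0.34), a Nodal co-receptor, Sema6d (0.38) and Amot (0.45), and those nearest to Foxa2 were Foxj1 (0.35), the regulator of motile cilia, Lgr5 (0.36) and Dgkk (0.38). For Hhex they were Gdpd5 (0.26), Irx1 (0.29) and Greb1l (0.3), for Foxa1 Slc35g2 (0.36), Hhex (0.36) and Chsy3 (0.38), and for Foxa3 Pcbd1 (0.19), Sox9 (0.22) and Cyp2j6 (0.22). The range of Cer1 was matched less closely, with Frzb (0.98), Mesp1 (1.08) and Cfc1 (1.2) nearest. These values describe 12 libraries that fall into 3 groups, and a gene with a small range finds close neighbours more easily.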

How the data were processed

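Polyadenylated RNA of 12 libraries, 4 each of ESC, Eo− and Eo+, was sequenced with strand information. Per the labels, the authors aligned reads to mm10 with STAR (given there as 2.0.4, and as another version in the study's methods), assembled transcripts with Cufflinks 2.2.1 and counted uniquely aligned reads per locus with HTSeq 0.6.1, and the deposited values used here are these raw counts (80012 loci, of which 79655 have positions). A deposited normalized signal, the counts divided by 1 constant per library, served only to define an alternative set of loci. No column of another sample was used. Reads tallied to no locus were left out (no feature, 2.65 to 3.6%, and not unique, 22.4 to 26.2%). The 6 genes and all gene lists were chosen with earlier results of these data known.

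Loci of 3 classes (14222 protein-coding, 1003 annotated lncRNA and 2713 non-annotated lncRNA) with a group mean above 0.1 FPKM in at least 1 group were tested with limma 3.58.1 (voom, TMM sizes from edgeR 4.0.16) in R 4.3.3, 1 mean per group over all 12 libraries without a replicate block, two-sided, with Benjamini-Hochberg adjustment over 17938 loci. The threshold for a call was an adjusted p of 0.05. CPM and FPKM use TMM-scaled library sizes. SE is that of the moderated fit, and the calculation was tested on simulated counts. Genes of a list were named if they had the largest absolute log2 fold changes in Eo+ vs Eo−, lay at the opposite end of a list, or had a role a sentence is about. Some members of the lists are not reported here. Neighbouring loci are those within 100 kb, and like profiles use log2(CPM + 0.1) of protein-coding loci with 1 symbol and a group mean of at least 1 CPM. Promoter windows are from RefSeq on GRCm38.p6, and biotypes from GENCODE.

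The study describes 4 differentiation sets, and Eo− and Eo+ of 1 number come from the same embryoid bodies. Deviations from the group means of same-numbered Eo− and Eo+ libraries correlated at 0.312 to 0.634 in 4 of 4 pairs, so the numbers pair both fractions. For ESC with Eo− (−0.125 to 0.43) and ESC with Eo+ (−0.0959 to 0.135) they did not in every pair. Floors cover counting error only. Alternatives were edgeR's quasi-likelihood test, DESeq2 1.42.0, other size factors and library totals, other filters, the replicate block, the 2 groups alone, a 2-fold minimum and leaving out each library.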

Additional observations from a re-analysis of the deposited data

Results flagged for a closer look

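Among 18 sets of 4 libraries (6 genes in 3 groups), 2 held a library set apart from the others, and chance flags about 1 in 20 sets. Foxa2 in Eo+ was 170 CPM in replicate 5 against 93.8 to 105 in the other 3, a gap of 0.854 of the whole range. Without that library Foxa2 was still called higher in Eo+ in both comparisons. Hhex in Eo− was 16.2 CPM in replicate 1 against 6.38 to 8.03 in the other 3, a gap of 0.833 of the range, and its log2 fold change in Eo− vs ESC was 0.14 without it against 0.44 with all libraries.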

How the results depend on the processing

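Over 22 alternatives for each gene and comparison, 387 of 396 log2 fold changes of the 6 genes kept their direction and their side of the threshold. Foxa3 in Eo+ vs Eo− was no longer called in 5 alternatives: with only the 2 groups compared (0.79) and without 1 of 4 libraries named in the report, with a range of 0.58 to 1.1 on leaving out 1 library at a time. The replicate block called Hhex in Eo− vs ESC, at 0.48 in the fit of all groups and 0.49 in the fit of 2 groups with the block, a fit added after seeing the data (limma-voom adjusted p = 0.0491). In the fit of Eo+ and Eo− alone, the block also restored the call of Foxa3 (0.85, limma-voom adjusted p = 0.00898), and it changed no other call of the 6 genes. The count of Nodal signalling genes without Eomes was also added after seeing the data. Foxa1 in Eo− vs ESC, never called, changed sign without ESC replicate 6 (−0.00464) and without Eo− replicate 1 (−0.13), with a range of −0.13 to 0.26 on leaving out 1 library at a time. Requiring a 2-fold change as well left 6839 of 12901 loci called in Eo+ vs ESC, 5078 of 11165 in Eo− vs ESC and 3794 of 8550 in Eo+ vs Eo−, and 6, 4 and 5 of the 6 genes. In mean FPKM, 19 of 126 values moved by more than 1 SD, all with another transcript length; the annotated lengths were also added after seeing the data. With 4 libraries a group and spreads of up to 4.35-fold within a group, precision was limited by the spread between libraries and not by depth.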
